A study of Homo sapiens with 6 samples.

Results

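The clustered histone genes are the replication-dependent histone genes that sit in arrays on chromosomes 1, 6 and 12 and encode the linker histone H1 and the core histones H2A, H2B, H3 and H4. They were taken as the genes of the deposited table with an older symbol that starts with HIST1H, HIST2H, HIST3H or HIST4H. There were 70 such genes among 18806 in the table, and the 51 with a level of at least 1 TPM in 2 or more libraries were kept. TPM is transcript abundance per length, scaled to the same total in each library. The 3 gene pairs HIST2H2AA3 and HIST2H2AA4, HIST2H3A and HIST2H3C, and HIST2H4A and HIST2H4B held the same values in every library, so the 51 rows hold 48 distinct measurements, of which 4 belonged to H1, 12 to H2A, 12 to H2B, 9 to H3 and 11 to H4.

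The libraries came from Mono-mac-6 cells, an established acute myeloid leukemia line of monocytic type that carries an MLL-AF9 fusion. A single clone that expresses the nuclease Cas9 received lentiviral guide RNAs, so every group shares that clone, the virus and drug selection (hygromycin B at 200 µg per ml, blasticidin at 10 µg per ml). The 3 groups were sgDDX6.1 and sgDDX6.2, which carry different guides against DDX6, and sgNS, which carries the control guide. Each group had 2 libraries of poly(A)+ RNA. Harvest was labelled as 8 days after infection. DDX6 encodes an RNA helicase of processing bodies that acts in mRNA decapping and translational repression. The labels do not say whether replicate libraries came from separate cultures, so the p-values reflect no more than the spread among the 6 libraries, which may be technical.

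Most mRNAs of the clustered genes end in a short stem-loop instead of a poly(A) tail. The stem-loop is bound by the protein SLBP, the end is cut with the help of the U7 small nuclear ribonucleoprotein, and the mRNA is made in S phase and degraded when DNA replication stops, with the help of UPF1, the exonuclease ERI1 and the LSM1-7 ring. Some of these genes also give longer transcripts that pass the stem-loop and end in a poly(A) tail, and such forms are known from differentiated cells. Poly(A)+ selection retains those forms and little of the stem-loop form. The values below therefore describe the part of histone RNA that was kept by the selection, and no other RNA without a poly(A) tail was present in the table from which carry-over could be measured.

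The stem-loop was looked up in the GENCODE release 29 transcripts (GRCh38) as a 16-base hairpin with a 6-base-pair stem, and 25 of the 51 kept genes had a transcript that held it. It is printed here for genes whose levels are described below, 5′ to 3′ on the gene strand with 5 bases on each side, and the capitals mark the hairpin.
HIST1H2AC: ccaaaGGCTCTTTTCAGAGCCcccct
HIST2H2AA3: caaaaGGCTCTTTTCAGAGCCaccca
HIST3H2A: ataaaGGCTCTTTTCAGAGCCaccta
HIST1H2BC: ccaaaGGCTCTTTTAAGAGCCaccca
HIST1H2BD: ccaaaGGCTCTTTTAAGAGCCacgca
HIST2H2BE: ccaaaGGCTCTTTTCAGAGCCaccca
HIST1H4H: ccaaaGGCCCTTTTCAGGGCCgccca
HIST2H4A: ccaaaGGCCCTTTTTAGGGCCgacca
The hairpins lie in the 3′ untranslated regions. For HIST1H2AC the site is chr6:26124664-26124689 on the plus strand, and the annotated transcripts run 1114 and 1128 bases past the hairpin. For HIST2H2BE it is chr1:149886183-149886208 on the minus strand, with 1729 transcript bases after it. For HIST1H2BC it is chr6:26123467-26123492 on the minus strand, and for HIST1H2BD chr6:26158582-26158607 on the plus strand. Both genes also have a spliced GENCODE transcript without the hairpin, whose last 40 bases hold a poly(A) signal (AATAAA or ATTAAA). For HIST2H2AA3 the site is chr1:149842218-149842243, for HIST3H2A chr1:228457364-228457389, for HIST1H4H chr6:26285126-26285151, all on the minus strand, and for HIST2H4A chr1:149833027-149833052 on the plus strand. The longest annotated HIST1H4H transcript continues for 1655 bases, while the shortest stops 18 bases after the hairpin.

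Promoters were read from RefSeq (GRCh38.p14), with 250 bases before and 50 after the start of transcription. Those of HIST1H2BK, the most abundant clustered histone gene, and HIST2H2BE are shown because these H2B genes differed by the same amount between the guides. Capitals mark the octamer ATTTGCAT, the box CCAAT (or ATTGG, its reverse complement) and TATAAA.
HIST1H2BK: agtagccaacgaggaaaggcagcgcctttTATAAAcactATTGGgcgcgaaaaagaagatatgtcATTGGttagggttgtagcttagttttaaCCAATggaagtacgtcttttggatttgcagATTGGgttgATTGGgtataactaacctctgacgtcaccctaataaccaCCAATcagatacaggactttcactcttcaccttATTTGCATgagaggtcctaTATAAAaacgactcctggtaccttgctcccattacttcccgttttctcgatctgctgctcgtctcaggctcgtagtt
HIST2H2BE: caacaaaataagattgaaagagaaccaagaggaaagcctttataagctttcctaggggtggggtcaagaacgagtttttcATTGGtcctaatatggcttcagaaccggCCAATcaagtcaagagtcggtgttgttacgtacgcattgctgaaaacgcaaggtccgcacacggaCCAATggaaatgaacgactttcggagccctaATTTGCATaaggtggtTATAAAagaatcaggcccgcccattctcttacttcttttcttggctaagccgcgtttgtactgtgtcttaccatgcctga
The windows are chr6:27146809-27147108 and chr1:149886633-149886932, both on the minus strand, and in both the octamer starts at position -46 from the start of transcription. From a second RefSeq start of HIST1H2BK the octamer is at -49. In the other kept H2B promoters that hold it, it starts at -47 (HIST1H2BJ), -49 (HIST1H2BH and HIST2H2BF), -111 (HIST1H2BF), -123 (HIST1H2BC) and -149 (HIST1H2BO). The octamer is the site of POU-domain factors such as POU2F1, which act on H2B genes. Searched on both strands, it was found in 8 of 12 kept H2B promoters (66.7%), 7 of 12 of H2A (58.3%), 1 of 8 of H3, 0 of 10 of H4 and 0 of 4 of H1. Over all 27305 promoters of the table its share was 2.19%. CCAAT on both strands was found in 84.6% of the 65 matched clustered histone promoters and in 39.7% of all, and TATAAA on the gene strand in 58.5% and 8.99%. A match does not show that a factor binds.

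DDX6 itself averaged 53.2 ± 1.73 TPM in sgDDX6.1, 52.9 ± 0.799 TPM in sgDDX6.2 and 101 ± 1.85 TPM in sgNS (SD, n = 2 each), so all libraries fitted their labels as sgDDX6 or sgNS. Its level cannot tell sgDDX6.1 libraries from sgDDX6.2 libraries. The table does not show the edit in the DNA or the protein. All libraries had 10794 to 11007 genes at 1 TPM or more, and the 20 most abundant genes took 13.32 to 14.01% of the total. Markers of the monocytic leukemia line were abundant (LYZ, lysozyme, averaged 14113 TPM in sgDDX6.1, 14704 TPM in sgDDX6.2 and 9781 TPM in sgNS), but they moved with the groups. Of 14, 9 rose and 4 fell over both guides (-1.23, for MPO, to 1.54) in the limma test described below. In that test 33.8% of all genes rose and 32.9% fell. The 14 markers summed to 26748 and 26788 TPM in sgDDX6.1, 26372 and 25691 TPM in sgDDX6.2, and 14742 and 14246 TPM in sgNS. T-cell, B-cell and erythroid markers summed to at most 5.23 TPM in any library, and 5 of 6 T-cell, 1 of 5 B-cell and 3 of 6 erythroid markers were at 0 throughout. Of the markers of epithelial cells and fibroblasts, 2 of 8 were at 0, and the summed level was 11.5 and 12.3 TPM in sgDDX6.1, 17.5 and 19.9 TPM in sgDDX6.2, and 21.1 and 21.4 TPM in sgNS, nearly all of it KRT18. Their part in the histone values was not tested.

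RNA of the clustered histone genes was more abundant in sgDDX6.2 than in sgDDX6.1 and sgNS. The 70 genes summed to 838.8 and 873.4 TPM in the sgDDX6.1 libraries, to 1431.8 and 1425.6 TPM in the sgDDX6.2 libraries, and to 783 and 813.8 TPM in the sgNS libraries. The ratio of mean sums was 1.07 for sgDDX6.1 over sgNS and 1.79 for sgDDX6.2 over sgNS. HIST1H2BK alone held 37.9 to 47.6% of the sum in each library. Without it the ratios were 1.19 for sgDDX6.1 and 1.70 for sgDDX6.2. In bulk libraries, more RNA per cell and more cells of a kind that expresses a gene cannot be told apart.

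**Figure D1:**
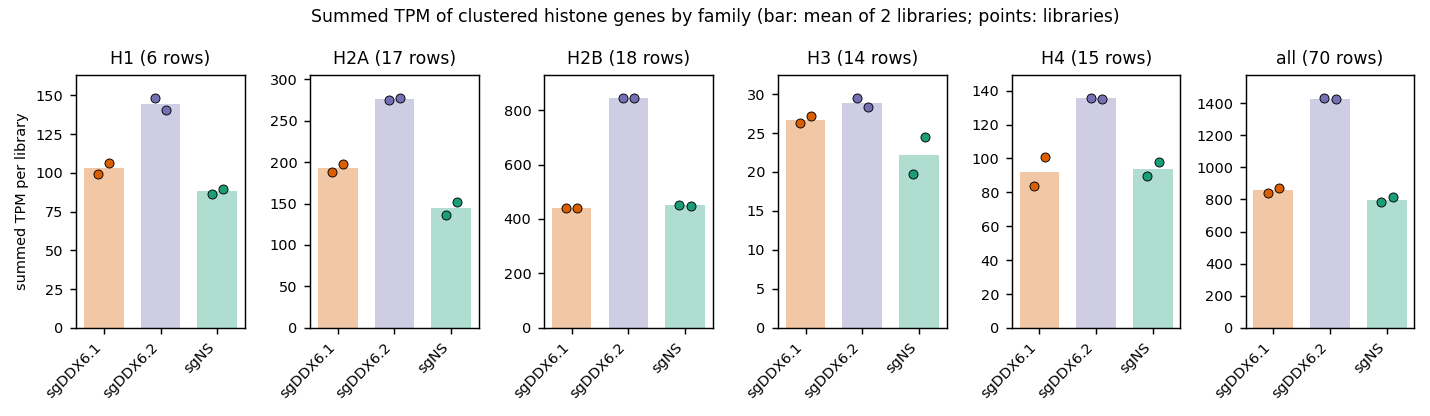
Summed TPM of the H1, H2A, H2B, H3 and H4 genes and of all 70 clustered histone genes, with bars for the mean of 2 libraries, points for libraries, sgDDX6.1 and sgDDX6.2 left of sgNS, and a separate linear axis from 0 in each panel. The sgDDX6.2 libraries are the highest in every panel, and H2B makes up more than any other family.

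The families differed in how their sums changed. H2B summed to 441 TPM in sgDDX6.1, 844 TPM in sgDDX6.2 and 450 TPM in sgNS, which made it the most abundant family and gave ratios to sgNS of 0.981 for sgDDX6.1 and 1.88 for sgDDX6.2. H2A had 193 ± 6.34 TPM in sgDDX6.1, 276 ± 1.62 TPM in sgDDX6.2 and 144 ± 11.1 TPM in sgNS (SD, n = 2 each), with ratios of 1.34 for sgDDX6.1 and 1.91 for sgDDX6.2, so it was higher with both guides. H1 had 103 ± 5.05 TPM in sgDDX6.1, 145 ± 5.22 TPM in sgDDX6.2 and 88.1 ± 2.43 TPM in sgNS. H4 had 92.2 ± 12.4 TPM in sgDDX6.1, 135 ± 0.233 TPM in sgDDX6.2 and 94.0 ± 5.78 TPM in sgNS, and the sgDDX6.1 and sgNS libraries overlapped. H3 was the scarcest family, with 26.7 ± 0.651 TPM in sgDDX6.1, 28.9 ± 0.827 TPM in sgDDX6.2 and 22.1 ± 3.40 TPM in sgNS, although nucleosomes hold as much H3 as H2B. No test was made on sums.

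Each gene was tested on log2(TPM + 1) with limma's moderated test in a fit over all 11151 kept genes, with Benjamini-Hochberg adjustment and a threshold of 0.05, and differences below are on that scale. This scale understates the change of low genes. For the mean of both guides against sgNS, 26 of the 51 genes rose and 3 fell. Over all genes tested, 66.7% passed this test, 33.8% higher and 32.9% lower. With identical rows counted once, 23 of 48 rose (47.9%), 3 fell (6.25%), and the median difference was 0.23, against 0.00 over all genes. With sgDDX6.1 against sgNS, 13 of 51 rose and 7 fell, where 61.6% of all genes passed, 31.8% higher and 29.7% lower, and the median of the 48 was 0.10. With sgDDX6.2 against sgNS, 22 of 51 rose and 3 fell, where 64.2% of all genes passed, 31.5% higher and 32.7% lower, and the median of the 48 was 0.34. The comparisons of the guides share the sgNS libraries. HIST1H4B and HIST2H3D reached 1 TPM only in sgDDX6 libraries, so their calls follow from the limit on low values. Without them, 21 of 46 rose and 3 fell over both guides, with a median of 0.22. Of the same 46, 9 rose and 7 fell with sgDDX6.1, and 19 rose and 3 fell with sgDDX6.2.

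Clustered histone genes that fell were fewer than their background with both guides, while the share that rose with sgDDX6.1 was below the background. For the 48 distinct rows, all 4 sgDDX6 libraries were above both sgNS libraries in 10 (20.8%), against 31.5% of all genes, and below both in 2 (4.17%), against 31.9% of all genes. The first count was 9 of 46 without HIST1H4B and HIST2H3D. The 2 were HIST1H4C and HIST3H2A. The sgDDX6.1 libraries were above both sgNS libraries in 15 of 48 (31.2%) and below in 9 (18.8%), against 40.3% and 38.7% of all genes. By level, the 7 distinct genes with a mean of 20 TPM or more all rose over both guides, with a median of 0.55, where 40.4% of all 6410 genes of that level were higher and 30.6% lower. With sgDDX6.1 alone, 5 of the 7 rose and 1, HIST1H2BK, fell, with a median of 0.25. Level was the mean over all 6 libraries, so the 7 include HIST2H4A, which was at 20 TPM or more only in sgDDX6.2 libraries. Of the 29 with a mean under 5 TPM, 11 rose and 3 fell, with a median of 0.18, where all 1853 tested genes of that level had 21.4% higher and 35.8% lower.

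**Figure D2:**
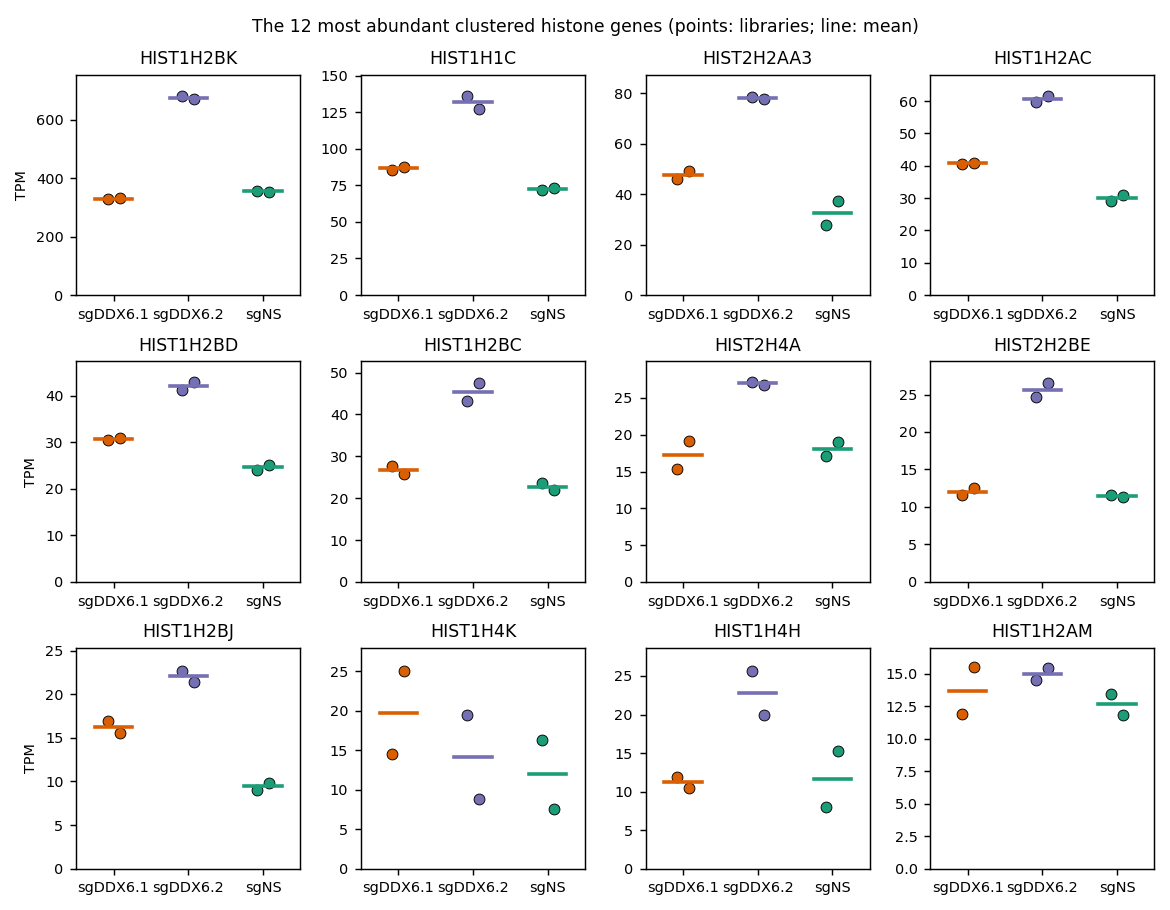
TPM of the 12 clustered histone genes with the highest mean, with points for libraries, lines for group means, sgDDX6.1 and sgDDX6.2 left of sgNS, and a separate linear axis from 0 in each panel. HIST1H2BK lies near 676 TPM in sgDDX6.2, against 330 TPM in sgDDX6.1 and 354 TPM in sgNS, and the libraries of HIST1H4K spread more within groups than between them.

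H2B was the family with the highest share of genes called higher in sgDDX6.2 than in sgDDX6.1, 8 of 12 (66.7%), against 17% of all genes. HIST1H2BK, which encodes the core histone H2B type 1-K and lies at chr6:27146418-27146798, had 328.7 and 331.4 TPM in sgDDX6.1, 681.1 and 670.2 TPM in sgDDX6.2, and 355 and 353.9 TPM in sgNS. The sgDDX6.2 libraries were far above all others and the sgDDX6.1 libraries slightly below sgNS, with differences from sgNS of -0.10 ± 0.03 for sgDDX6.1 (SE, adjusted p = 0.0203) and 0.93 ± 0.03 for sgDDX6.2 (adjusted p = 9.15e-10). The call for sgDDX6.1 was lost without sgNS replicate 1 (-0.10) and without sgNS replicate 2 (-0.105), although the difference itself hardly changed. Its rise over the mean of both guides (0.41 ± 0.03, adjusted p = 2.27e-07) therefore came from sgDDX6.2. HIST2H2BE, another core H2B gene, had 11.53 and 12.48 TPM in sgDDX6.1, 24.61 and 26.48 TPM in sgDDX6.2, and 11.53 and 11.34 TPM in sgNS. Only its sgDDX6.2 libraries stood apart, at 1.09 ± 0.07 above sgNS (adjusted p = 1.12e-07), and sgDDX6.1 differed by 0.06 ± 0.07 (adjusted p = 0.447).

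HIST1H2BC, HIST1H2BD and HIST1H2BJ, which also encode core H2B, were higher with both guides. HIST1H2BJ had 16.9 and 15.52 TPM in sgDDX6.1, 22.71 and 21.38 TPM in sgDDX6.2, and 9.03 and 9.86 TPM in sgNS, without overlap of the 3 groups. It rose by 0.72 ± 0.07 with sgDDX6.1 (adjusted p = 6.4e-06) and by 1.14 ± 0.07 with sgDDX6.2 (adjusted p = 1.2e-07). HIST1H2BC had 27.7 and 25.86 TPM in sgDDX6.1, 43.2 and 47.48 TPM in sgDDX6.2, and 23.56 and 21.86 TPM in sgNS. The order of the groups was the same, but its call for sgDDX6.1 (0.23 ± 0.07, adjusted p = 0.0109) was lost without sgDDX6.1 replicate 1 or without sgNS replicate 2 (0.18 in each case). HIST1H2BD had 30.55 and 30.96 TPM in sgDDX6.1, 41.32 and 42.97 TPM in sgDDX6.2, and 24.13 and 25.12 TPM in sgNS, which gave 0.31 ± 0.06 over sgNS for sgDDX6.1 (adjusted p = 0.000461) and 0.75 ± 0.06 for sgDDX6.2 (adjusted p = 3.42e-07). HIST1H2BN, the next in level, differed by 0.18 ± 0.10 over both guides (adjusted p = 0.156). Of the 12 H2B genes, 5 rose and 1 fell over both guides, where 33.8% of all genes rose and 32.9% fell. The 1 that fell was HIST3H2BB, an H2B gene outside the main clusters, with 0 and 0.25 TPM in sgDDX6.1, 1.13 and 1.8 TPM in sgDDX6.2, and 2.32 and 1.25 TPM in sgNS. Its values were low, and it fell with sgDDX6.1 (-1.29 ± 0.19, adjusted p = 0.000122), whereas sgDDX6.2 differed by -0.16 ± 0.19 (adjusted p = 0.478).

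Among H2A genes, the most abundant, HIST1H2AC and the pair HIST2H2AA3 and HIST2H2AA4, rose with both guides. HIST2H2AA3 and HIST2H2AA4, which have identical coding sequences and equal values, had 46.16 and 49.16 TPM in sgDDX6.1, 78.46 and 77.94 TPM in sgDDX6.2, and 27.88 and 37.46 TPM in sgNS. The groups did not overlap, and the differences from sgNS were 0.55 ± 0.10 for sgDDX6.1 (adjusted p = 0.000587) and 1.25 ± 0.10 for sgDDX6.2 (adjusted p = 7.21e-07). HIST1H2AC had 40.62 and 40.93 TPM in sgDDX6.1, 59.8 and 61.57 TPM in sgDDX6.2, and 29.03 and 30.87 TPM in sgNS, which gave 0.43 ± 0.05 for sgDDX6.1 (adjusted p = 2.68e-05) and 1.00 ± 0.05 for sgDDX6.2 (adjusted p = 2.26e-08). For both genes sgDDX6.2 was the highest group and sgNS the lowest. The largest rise of any clustered histone gene over both guides was that of HIST1H2AD (1.37 ± 0.14, adjusted p = 5.38e-06), at 7.51 and 4.38 TPM in sgDDX6.1, 7.12 and 6.8 TPM in sgDDX6.2, and 1.71 and 1.98 TPM in sgNS. HIST2H2AB rose with each guide (0.96 ± 0.12 over both, adjusted p = 2.84e-05), with 3.97 and 2.76 TPM in sgDDX6.1, 3.44 and 2.96 TPM in sgDDX6.2, and 1.39 and 1.01 TPM in sgNS. HIST1H2AD overlaps the annotated gene AL031777.3 on its own strand, and HIST2H2AB overlaps BOLA1 on the other strand, so reads of these genes are uncertain. The same holds for HIST1H2AL, which overlaps HIST1H2BN on the same strand, and for HIST1H2AK, which overlaps HIST1H2BN on the other strand. The H2B gene HIST2H2BF overlaps FCGR1A on the other strand.

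HIST3H2A, an H2A gene on chromosome 1 next to HIST3H2BB, went the other way. It had 2.01 and 2.12 TPM in sgDDX6.1, 2.31 and 2.68 TPM in sgDDX6.2, and 4.49 and 5.32 TPM in sgNS. Both guides were below sgNS without overlap, with differences of -0.94 ± 0.11 for sgDDX6.1 (adjusted p = 1.29e-05) and -0.76 ± 0.11 for sgDDX6.2 (adjusted p = 6.62e-05). HIST2H2AC had 10.71 and 13.57 TPM in sgDDX6.1, 7.3 and 8.65 TPM in sgDDX6.2, and 12.43 and 8.14 TPM in sgNS, so both guides overlapped sgNS and the difference over both guides was -0.04 ± 0.14 (adjusted p = 0.831). HIST1H2AM differed by 0.16 ± 0.09 (adjusted p = 0.141). HIST1H2AG passed narrowly (0.22 ± 0.09, adjusted p = 0.0487) and did not pass without sgNS replicate 2 (0.06), sgDDX6.1 replicate 1 (0.20), sgDDX6.1 replicate 2 (0.24) or sgDDX6.2 replicate 2 (0.18). Of the 12 distinct H2A genes, 6 rose and 1 fell over both guides, where 33.8% of all genes rose and 32.9% fell. The 6 include HIST1H2AL (0.41), which did not pass without sgNS replicate 1 (0.24), either sgDDX6.1 replicate (0.38 and 0.43) or sgDDX6.2 replicate 2 (0.25).

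The H1 family rested on HIST1H1C. This linker histone gene had 85.68 and 87.67 TPM in sgDDX6.1, 136.4 and 127 TPM in sgDDX6.2, and 71.99 and 73.21 TPM in sgNS. The groups did not overlap, and it rose by 0.25 ± 0.05 with sgDDX6.1 (adjusted p = 0.000695) and by 0.85 ± 0.05 with sgDDX6.2 (adjusted p = 3.48e-08). HIST1H1E, also a linker histone, had 9.92 and 13.72 TPM in sgDDX6.1, 8.09 and 9.06 TPM in sgDDX6.2, and 11.33 and 12.72 TPM in sgNS. Its sgDDX6.2 libraries were the lowest, and it fell there by 0.44 on the log2 scale (SE 0.12, adjusted p = 0.00724), opposite to HIST1H1C. HIST1H1D and HIST1H1B were at 1.22 to 2.86 TPM, and only HIST1H1D passed over both guides (0.43 ± 0.16, adjusted p = 0.0367), a call that ended without sgNS replicate 1 (0.36), sgDDX6.1 replicate 2 (0.32) or sgDDX6.2 replicate 2 (0.27). The H1 genes other than HIST1H1C summed to 16.4 ± 3.64 TPM in sgDDX6.1, 12.9 ± 1.40 TPM in sgDDX6.2 and 15.5 ± 1.56 TPM in sgNS (SD, n = 2 each), without the excess seen for HIST1H1C in sgDDX6.2.

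Of the 11 distinct H4 genes, 5 rose and 1 fell with sgDDX6.2, and 1 rose and 1 fell with sgDDX6.1. Both counts of rises include HIST1H4B, which reached 1 TPM only in sgDDX6.1 libraries. Without it, 4 of 10 rose and 1 fell with sgDDX6.2, and 0 rose and 1 fell with sgDDX6.1. Among all genes, 31.5% rose and 32.7% fell with sgDDX6.2, and 31.8% rose and 29.7% fell with sgDDX6.1. HIST2H4A and HIST2H4B, which share 1 coding sequence and had equal values, had 15.28 and 19.2 TPM in sgDDX6.1, 27.15 and 26.79 TPM in sgDDX6.2, and 17.15 and 19.02 TPM in sgNS. They rose by 0.55 ± 0.09 with sgDDX6.2 (adjusted p = 0.000269), and sgDDX6.1 differed by -0.07 ± 0.09 (adjusted p = 0.516). HIST1H4E rose by 0.40 ± 0.08 with sgDDX6.2 (adjusted p = 0.000873) and differed by 0.04 ± 0.08 with sgDDX6.1 (adjusted p = 0.708). HIST1H4H had 11.94 and 10.44 TPM in sgDDX6.1, 25.6 and 19.9 TPM in sgDDX6.2, and 8.04 and 15.24 TPM in sgNS. Its sgDDX6.2 libraries were above all others (0.96 ± 0.20 over sgNS, adjusted p = 0.00153), but the sgNS libraries differed so much that its difference for sgDDX6.1 (0.01 ± 0.20) became -0.42 without sgNS replicate 1 (adjusted p = 0.00661). Its call over both guides (0.48 ± 0.18, adjusted p = 0.0305) was lost without that library (0.06), sgDDX6.1 replicate 1 (0.44), sgDDX6.1 replicate 2 (0.53) or sgDDX6.2 replicate 1 (0.40). The call of HIST2H4A over both guides (0.24) was lost without sgNS replicate 1 (0.17), and that of HIST1H4E (0.22) without sgNS replicate 2 (0.16).

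HIST1H4C fell with both guides and was the largest decrease over both (-0.90 ± 0.13, adjusted p = 8.57e-05). It had 1.79 and 2.25 TPM in sgDDX6.1, 2.98 and 4.72 TPM in sgDDX6.2, and 5.64 and 6.53 TPM in sgNS, with all sgDDX6 libraries below sgNS. Its difference was -1.23 ± 0.15 with sgDDX6.1 (adjusted p = 2.81e-05) and -0.57 ± 0.15 with sgDDX6.2 (adjusted p = 0.00631), and the second was -0.31 without sgDDX6.2 replicate 1 and did not pass. HIST1H4J and HIST1H4K have identical coding sequences of 312 bases, and the values of each swung between replicates, with HIST1H4K at 14.58 and 24.96 TPM in sgDDX6.1, 19.51 and 8.88 TPM in sgDDX6.2, and 16.35 and 7.53 TPM in sgNS. Their sum was steadier, at 22.58 and 30.18 TPM in sgDDX6.1, 29.72 and 35.32 TPM in sgDDX6.2, and 25.4 and 20.87 TPM in sgNS. RSEM, the tool that made the values, divides reads that fit several genes by a model, so each of the pair alone is uncertain. Neither passed over both guides. Over both guides, 5 of the 11 H4 genes rose and 1 fell, or 4 and 1 of 10 without HIST1H4B. Among all genes, 33.8% rose and 32.9% fell. The rise of HIST4H4 over both guides (0.65 ± 0.23, adjusted p = 0.0258) did not hold without sgNS replicate 2 (0.14), either sgDDX6.1 replicate (0.65 in each case) or sgDDX6.2 replicate 2 (0.50).

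H3 genes were low throughout. HIST2H3A and HIST2H3C, again 1 set of values, had 6.44 and 5.72 TPM in sgDDX6.1, 4.64 and 3.79 TPM in sgDDX6.2, and 4.23 and 3.59 TPM in sgNS. They rose with sgDDX6.1 (0.53 ± 0.11, adjusted p = 0.00123), and sgDDX6.2 differed by 0.09 ± 0.11 (adjusted p = 0.511). HIST1H3D had 2.37 and 4.15 TPM in sgDDX6.1, 6.59 and 7.74 TPM in sgDDX6.2, and 3.9 and 3.03 TPM in sgNS, and rose with sgDDX6.2 (0.87 ± 0.17, adjusted p = 0.000785). HIST1H3A (0.87 ± 0.16, adjusted p = 0.000469) and HIST1H3H (0.69 ± 0.18, adjusted p = 0.00543) also rose with sgDDX6.2, while HIST1H3J fell with sgDDX6.1 (-0.51 ± 0.16, adjusted p = 0.0156). The HIST1H3J call was lost without sgDDX6.1 replicate 1 (-0.25) or sgNS replicate 2 (-0.35). Of the 9 distinct H3 genes, 5 rose and 0 fell over both guides in limma's test, or 4 of 8 without HIST2H3D, which reached 1 TPM in no sgNS library. At an unadjusted p under 0.05, 0 fell too. Among all genes, 33.8% rose and 32.9% fell in limma's adjusted test. Only the HIST1H3H call held without any 1 library. HIST2H3A did not pass without sgNS replicate 2 (0.21), HIST1H3A without sgNS replicate 1 (0.20) or sgDDX6.1 replicate 1 (0.28), and HIST1H3D without sgNS replicate 2 (0.25), sgDDX6.1 replicate 2 (0.24) or sgDDX6.2 replicate 2 (0.34). HIST2H3D (0.50 ± 0.20, adjusted p = 0.0441) did not pass without sgNS replicate 1 (0.38), either sgDDX6.1 replicate (0.55 and 0.46) or sgDDX6.2 replicate 2 (0.27). HIST1H3D overlaps AL031777.3 and HIST1H3J overlaps HIST1H2AM, each on the same strand, and HIST2H3C overlaps HIST2H4A on the other strand, so their reads may be divided between them.

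**Figure D3:**
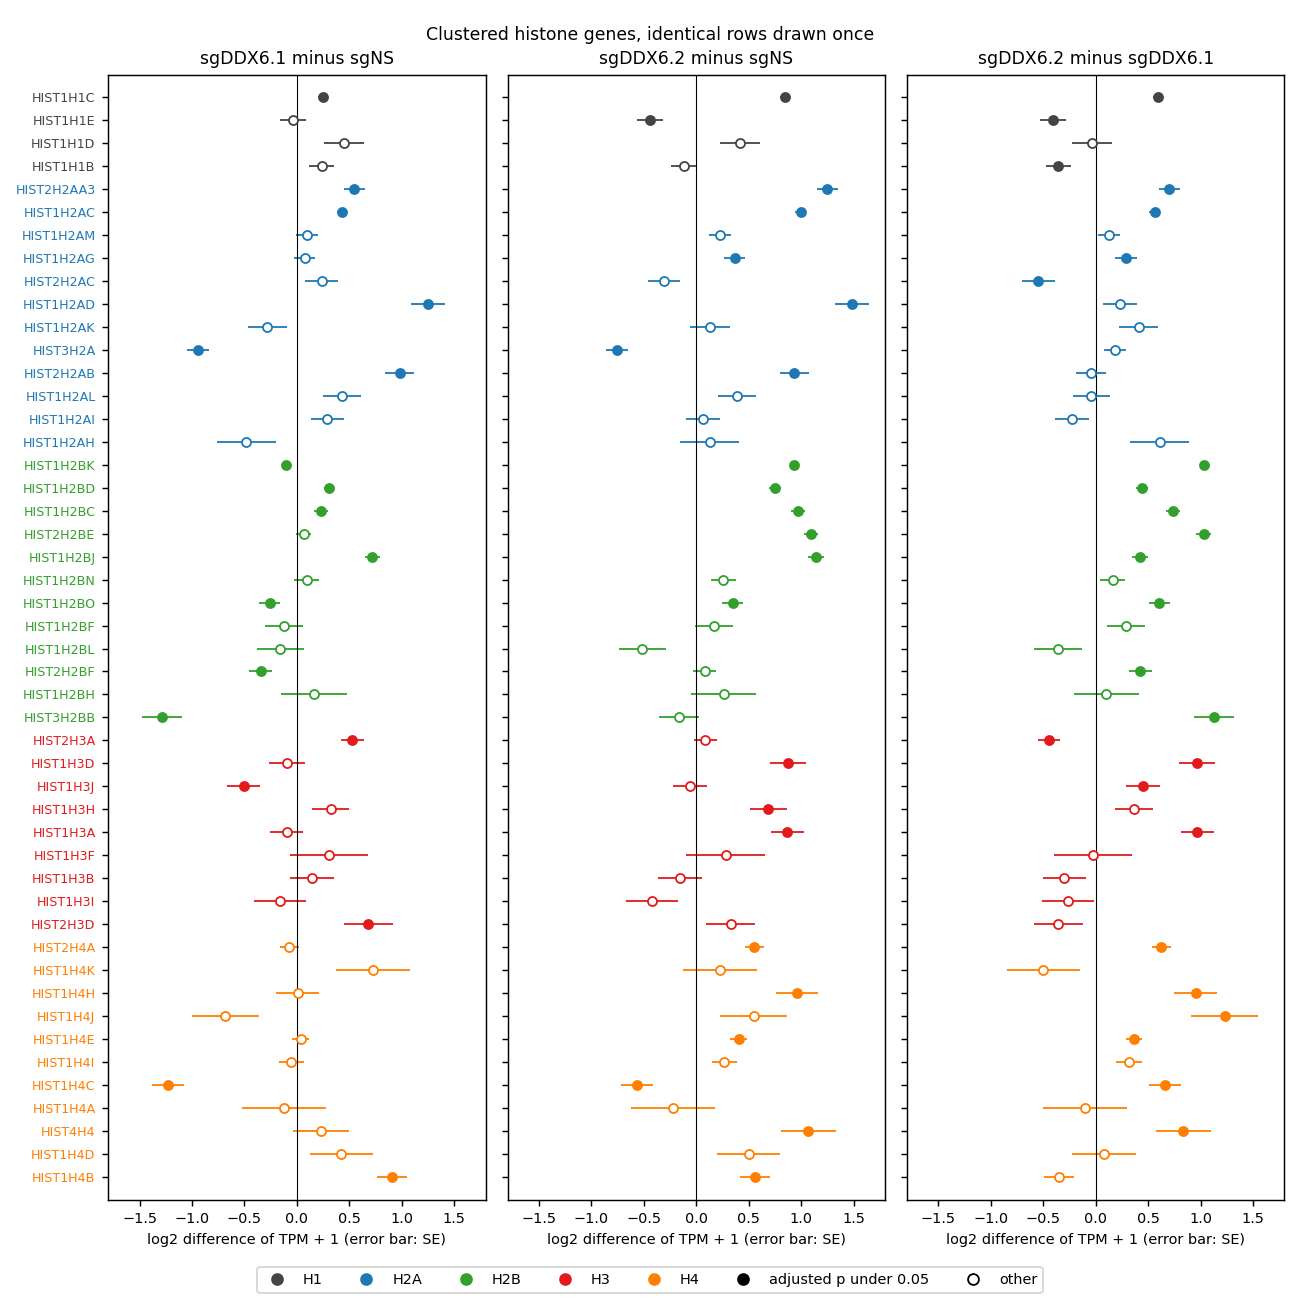
Differences in log2(TPM + 1) with their standard errors for the 48 distinct clustered histone genes, ordered by family and by mean level, with a panel for each guide less sgNS and a last one for sgDDX6.2 less sgDDX6.1, with filled points for an adjusted p under 0.05. In the last panel 21 genes are called higher and 4 lower, and every called H2B and H4 gene is on the higher side.

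The guides were compared directly, because both target DDX6 and lowered its mRNA to the same level (the difference in DDX6 was -0.01 ± 0.05, adjusted p = 0.918). For sgDDX6.2 minus sgDDX6.1, 23 of the 51 genes were higher and 5 lower, where 35.6% of all tested genes passed, 17% higher and 18.6% lower. With identical rows counted once, 21 of 48 were higher and 4 lower, and the median was 0.31, against -0.02 over all genes. By family, 8 of 12 H2B genes were higher and 0 lower, 6 of 11 H4 genes were higher and 0 lower, 3 of 12 H2A genes were higher and 1 lower, 3 of 9 H3 genes were higher and 1 lower, and 1 of 4 H1 genes was higher and 2 lower. HIST1H2BK (1.03 ± 0.03, adjusted p = 1.5e-08) and HIST2H2BE (1.03 ± 0.07, adjusted p = 2.83e-06) differed by the same amount, although their levels were far apart. Both sgDDX6.2 libraries were above both sgDDX6.1 libraries in 23 of 48 genes (47.9%), against 30.7% of all genes, and below in 6 (12.5%), against 38.5%. They were above all 4 other libraries in 16 (33.3%), against 19.2% of all genes, and below them in 1, HIST1H1E, against 21.3%. At an unadjusted p under 0.05, limma called 0 H2B genes and 1 H4 gene lower in sgDDX6.2. The counts depended on level. Among genes with a mean of 10 TPM or more, 12 of 17 clustered histone genes were higher and 2 lower, with a median of 0.56, against 15.1% and 22.7% of all 8151 genes of that level. Under 5 TPM, 7 of 29 were higher (24.1%) and 2 lower (6.9%), close to the 24.0% and 5.18% of all 1853 genes of that level.

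Of the 28 calls, 16 held when any 1 library was left out and 12 did not. The genes whose calls held were HIST1H1C, HIST1H2AC, HIST2H2AA3 and HIST2H2AA4, HIST1H2BC, HIST1H2BD, HIST1H2BJ, HIST1H2BK, HIST1H2BO, HIST2H2BE, HIST3H2BB, HIST1H3A, HIST1H3D, HIST1H4E, HIST2H4A and HIST2H4B. HIST1H1E did not pass without sgDDX6.1 replicate 2 (-0.19) or sgDDX6.2 replicate 1 (-0.33), and HIST1H1B without either sgDDX6.1 replicate (-0.42 without replicate 1 and -0.30 without replicate 2) or sgDDX6.2 replicate 2 (-0.25). HIST2H2BF did not pass without sgDDX6.1 replicate 2 (0.35) or sgDDX6.2 replicate 1 (0.40), and HIST2H3A and HIST2H3C without sgDDX6.1 replicate 1 (-0.37) or sgDDX6.2 replicate 2 (-0.33). HIST1H3J did not pass without sgDDX6.1 replicate 1 (0.19), sgDDX6.2 replicate 1 (0.48) or sgDDX6.2 replicate 2 (0.41). HIST1H4C did not pass without sgDDX6.1 replicate 1 (0.55) or sgDDX6.2 replicate 2 (0.40), and HIST1H4H without sgDDX6.1 replicate 2 (0.87). HIST1H4J and HIST4H4 did not pass without either sgDDX6.1 replicate or sgDDX6.2 replicate 2, at 0.58 to 1.5 for HIST1H4J and 0.54 to 0.84 for HIST4H4. Without the filter on low values 7 of all 70 genes passed, close to the share of all 18806 genes that did (9.36%), and 6 of the 28 calls held, those of HIST1H2BK, HIST2H2BE, HIST1H1C, HIST1H2AC, HIST1H2BC and HIST1H2BD. No cause of the difference between the guides was tested.

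H2A and H2B genes often lie back to back and share a promoter. Among the kept genes 9 such H2B and H2A pairs had starts 194 to 248 bases apart, from the RefSeq starts. In the comparison of sgDDX6.2 with sgDDX6.1, both partners were called higher in 2 pairs, HIST1H2BC with HIST1H2AC (0.74 ± 0.07 and 0.56 ± 0.05) and HIST1H2BJ with HIST1H2AG (0.42 ± 0.07 and 0.29 ± 0.10). The HIST1H2AG call (adjusted p = 0.0475) did not hold without any 1 of the 4 sgDDX6 libraries, at 0.21 to 0.37. In some other pairs only the H2B gene was called higher. HIST2H2BE was higher by 1.03 ± 0.07, and HIST2H2AC, which starts 236 bases away, was lower (-0.55 ± 0.16, adjusted p = 0.0197). The HIST2H2AC call did not hold without sgDDX6.1 replicate 2 (-0.39) or sgDDX6.2 replicate 1 (-0.44). HIST1H2BK was at 681.1 and 670.2 TPM in sgDDX6.2, against 328.7 and 331.4 TPM in sgDDX6.1. HIST1H2AH, which starts 248 bases away, was at 3.45 and 1.21 TPM in sgDDX6.2, against 1.23 and 0.89 TPM in sgDDX6.1 (difference 0.61 ± 0.28, adjusted p = 0.114). Its mean was also higher in sgDDX6.2 (2.33 TPM, against 1.06 TPM in sgDDX6.1). The scale understates changes at such low levels, so the values do not show that this pair parted. HIST1H2BO (0.61 ± 0.10, adjusted p = 0.00107) and HIST3H2BB (1.13 ± 0.19, adjusted p = 0.00115) were called higher, and the differences of their partners HIST1H2AM (0.13 ± 0.11) and HIST3H2A (0.19 ± 0.11) did not pass. No difference between partners was itself tested.

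**Figure D4:**
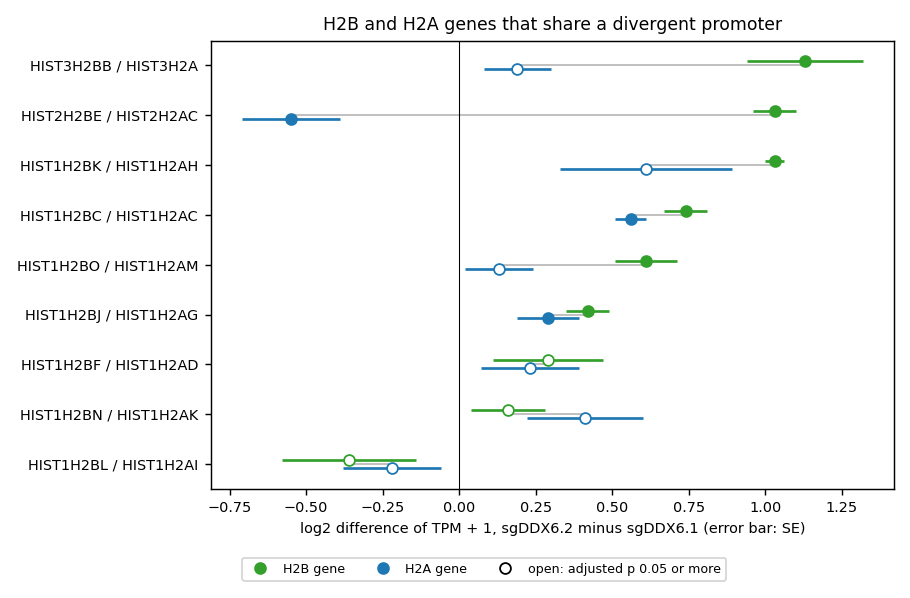
Difference in log2(TPM + 1) between sgDDX6.2 and sgDDX6.1, with standard errors, for 9 pairs of H2B and H2A genes that start 194 to 248 bases apart on opposite strands, with filled points for an adjusted p under 0.05. The H2B member is called higher in 6 pairs, and the H2A member is called higher in 2 and lower in 1.

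The genes were also grouped by whether GENCODE annotates a form that is spliced or runs at least 200 bases past the stop codon, as polyadenylated forms do. In sgDDX6.2 against sgDDX6.1, 13 of the 20 distinct genes with such a form were higher and 1 was lower, with a median of 0.42. Of the 28 without it, 8 were higher and 3 lower, with a median of -0.03. Among all genes, 17% were higher and 18.6% lower. Over both guides against sgNS, 12 of the 20 rose and 2 fell, and 11 of the 28 rose and 1 fell, with a median of 0.23 in each group. Among all genes, 33.8% rose and 32.9% fell, so the share of the 28 that rose (39.3%) was near the background. The 11 include HIST1H4B and HIST2H3D, which reached 1 TPM only in sgDDX6 libraries. The annotation is incomplete for this purpose. HIST1H2BK and HIST1H1C are annotated in GENCODE only as coding sequence, while the RefSeq gene of HIST1H2BK spans 8566 bases. In all, 22 of the kept genes have no annotated bases past the stop codon. They include HIST1H3J, which counts among the 20 through a spliced transcript without a coding sequence. By a RefSeq span of at least 1000 bases, a split chosen after the data were seen, 6 genes had a long form. All 6 were higher in sgDDX6.2 than in sgDDX6.1 (median 0.85), against 15 of 42 of the rest (median 0.21) and 17% of all genes. A list of 6 clustered genes with known poly(A)+ transcripts (HIST1H1C, HIST1H2AC, HIST1H2BC, HIST1H2BD, HIST1H2BK and HIST2H2BE) rose in all 6 cases over both guides, with a median of 0.54, where 33.8% of all genes were higher. With sgDDX6.1 alone 3 rose and 1, HIST1H2BK, fell, with a median of 0.16. The 6 summed to 509.1 and 513.8 TPM in sgDDX6.1, 968.8 and 948.1 TPM in sgDDX6.2, and 499.8 and 509.7 TPM in sgNS. The genes with long forms were also the more abundant ones (median level 6.3 TPM with a GENCODE form and 3.0 TPM without, and 24.0 and 3.38 TPM by RefSeq span). All 7 distinct clustered genes with a mean of 20 TPM or more were higher in sgDDX6.2 than in sgDDX6.1. They include HIST1H1C, which has no long form by either split. Among all genes of that level 15.3% were higher. A part of level in the counts was not tested.

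Histone genes outside the clusters, most of which are not tied to S phase and whose mRNAs carry poly(A) tails, gave a different pattern. Of 11 tested, 7 fell and 2 rose over both guides, with a median of -0.28 and a range of -2.05 to 0.37. Among all genes, 32.9% fell and 33.8% rose. Of the 48 distinct clustered genes, 3 fell and 23 rose. H1F0, the linker histone H1.0 of slowly dividing and differentiated cells, had 11.74 and 11.31 TPM in sgDDX6.1, 17.22 and 21.23 TPM in sgDDX6.2, and 32.51 and 33.49 TPM in sgNS, and fell with both guides without overlap (-1.10 ± 0.07 over both, adjusted p = 1.42e-07). H1FX, another linker histone, averaged 225 TPM in sgDDX6.1, 228 TPM in sgDDX6.2 and 361 TPM in sgNS (-0.67 ± 0.03, adjusted p = 1.05e-08). The linker histones thus parted, with HIST1H1C higher and H1F0 and H1FX lower. The clustered genes parted among themselves too, since HIST1H1E was lower with sgDDX6.2 (-0.44 ± 0.12). H3F3B, which encodes the replacement histone H3.3, fell (-0.39 ± 0.03, adjusted p = 1.93e-07), and H3F3A, which encodes the same protein, differed by 0.00 ± 0.04 (adjusted p = 0.994). H2AFZ, the gene of H2A.Z, fell (-0.28 ± 0.03, adjusted p = 9.55e-06), and H2AFY, the gene of macroH2A1, rose (0.37 ± 0.03, adjusted p = 1.52e-06). CENPA, the centromeric H3 variant, also rose (0.36 ± 0.04, adjusted p = 1.59e-05).

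**Figure D5:**
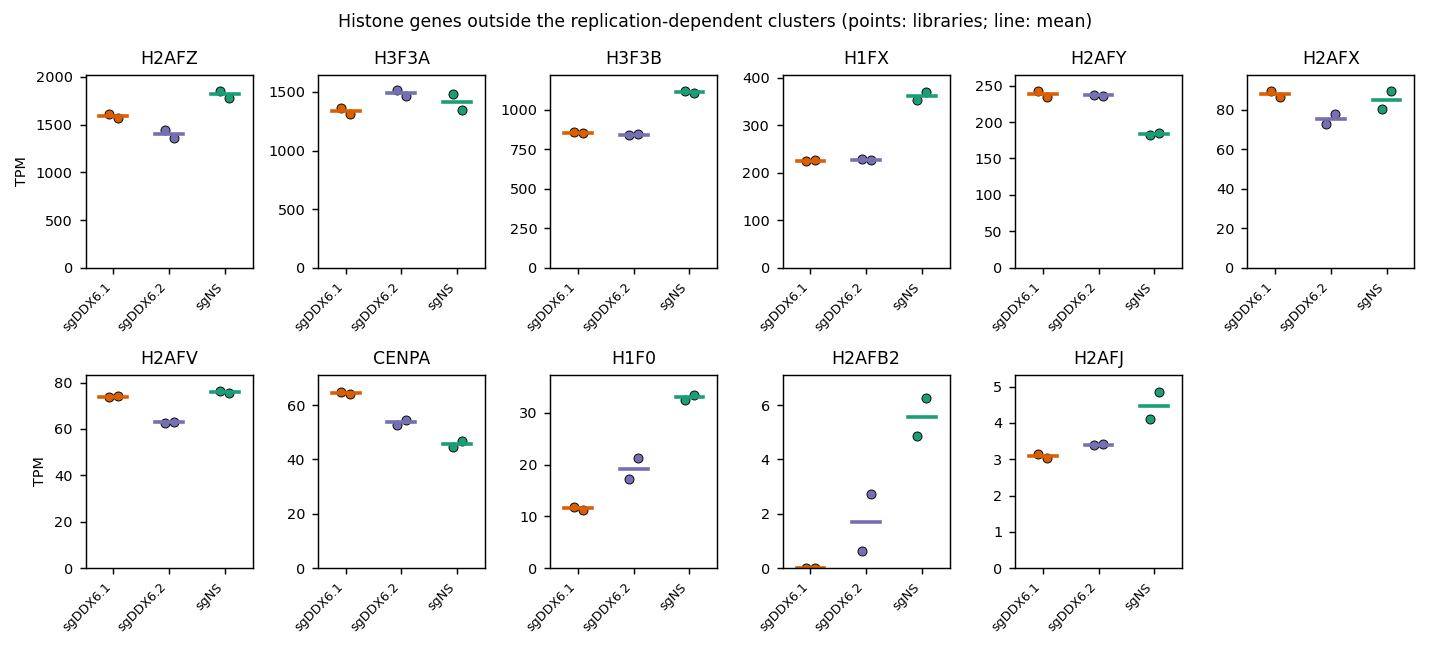
TPM of the 11 tested histone genes outside the replication-dependent clusters, with points for libraries, lines for group means, sgDDX6.1 and sgDDX6.2 left of sgNS, and a separate linear axis from 0 in each panel. H1F0, H1FX and H3F3B lie lower in all sgDDX6 libraries than in sgNS, and H2AFY and CENPA lie higher.

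Genes of DNA replication, with which clustered histone synthesis is coupled, were mostly lower. Of 40 tested, 27 fell (67.5%) and 2 rose (5.0%) over both guides, with a median of -0.22, where 32.9% of all genes fell and 33.8% rose. CDT1, which licenses replication origins, averaged 30.3 TPM in sgDDX6.1, 27.1 TPM in sgDDX6.2 and 62.0 TPM in sgNS (-1.09 ± 0.06, adjusted p = 2.02e-08), and PRIM1, a primase subunit, fell by 0.93 on the log2 scale (SE 0.04, adjusted p = 4.46e-09). MCM6 of the replicative helicase (-0.56 ± 0.03, adjusted p = 2.97e-08) and the clamp loader subunit RFC4 (-0.60 ± 0.04, adjusted p = 8.63e-08) fell as well. Between the guides, 20 of the 40 were lower and 2 higher in sgDDX6.2 (median -0.13), where 18.6% of all genes were lower and 17% higher. Of the 48 clustered histone genes, 21 were higher and 4 lower. A link between these sets of genes was not tested.

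Factors of histone gene transcription fell or did not pass, with 4 of 9 lower and 0 higher over both guides in limma's test, and 0 higher at an unadjusted p under 0.05 as well. Over all genes 33.8% were higher and 32.9% lower. NPAT, the activator of histone genes at the histone locus body, had 21.97 and 20.03 TPM in sgDDX6.1, 17.95 and 17.49 TPM in sgDDX6.2, and 29.77 and 26.93 TPM in sgNS, so it was lowest in sgDDX6.2 (-0.53 ± 0.06 over both, adjusted p = 1.16e-05). Its partner CASP8AP2 (-0.42 ± 0.05, adjusted p = 9.58e-06), CDK2, the kinase that phosphorylates NPAT (-0.36 ± 0.04, adjusted p = 1.02e-05), and POU2F1, which binds the octamer (-0.23 ± 0.06, adjusted p = 0.00388), fell too. Of 20 genes of 3′ end processing 7 rose (35%) and 3 fell (15%), the first near the background. SLBP, which binds the stem-loop, averaged 137 TPM in sgDDX6.1, 134 TPM in sgDDX6.2 and 156 TPM in sgNS (-0.20 ± 0.04, adjusted p = 0.0006). The U7 proteins parted, since LSM11 fell (-0.45 ± 0.07, adjusted p = 9.45e-05) and LSM10 rose (0.28 ± 0.05, adjusted p = 0.000271). SRRT, which links the mRNA cap to histone 3′ processing, rose (0.44 ± 0.04, adjusted p = 8.42e-07).

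Of 18 genes of histone mRNA decay, 6 rose and 6 fell (33.3% each), which is near the background of 33.8% and 32.9%. UPF1, the helicase that joins SLBP in that decay, rose (0.31 ± 0.05, adjusted p = 0.000202), as did LSM1 (0.27 ± 0.04, adjusted p = 3.7e-05), LSM3 (0.43 ± 0.04, adjusted p = 1.54e-06) and LSM7 (0.46 ± 0.05, adjusted p = 8.59e-06) of the LSM1-7 ring, whereas LSM6 fell (-0.29 ± 0.05, adjusted p = 0.000193). ERI1, the exonuclease that trims the stem-loop, differed by -0.05 ± 0.06 (adjusted p = 0.474). Among histone chaperones 4 of 19 rose (21.1%) and 6 fell (31.6%, near the background). NAP1L1, which carries H2A and H2B, fell (-0.64 ± 0.04, adjusted p = 4.3e-08), as did CHAF1A, the large subunit of the chromatin assembly factor that deposits H3 and H4 behind the fork (-0.47 ± 0.04, adjusted p = 1.12e-06), and RBBP7, which binds H4, rose (0.40 ± 0.03, adjusted p = 1.1e-06).

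The 19 genes that were not kept summed to 1.59 to 4.53 TPM in any library, and 6 of them were at 0 in all. Just inside the limit were HIST1H4B, at 1.22 and 1.14 TPM in sgDDX6.1, 0.71 and 0.71 TPM in sgDDX6.2, and 0.35 and 0 TPM in sgNS, and HIST2H3D and HIST1H2BH, each at 1 TPM or more in 3 libraries. HIST1H4B was kept through its sgDDX6.1 libraries alone. Just outside was HIST1H2BE, which reached 2.42 TPM in 1 sgDDX6.2 library only, and HIST1H2AB, which reached 0.90 TPM. Coding sequences of kept genes were alike within a family. The median identity to the nearest clustered gene was 77.2% for H1, 91.1% for H2A, 93.8% for H2B, 88.0% for H3 and 89.1% for H4, and 10 kept genes had a partner at 95% or more. Identity was thus lowest in H1.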

How the data were processed

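Poly(A)+ RNA of 6 Mono-mac-6 libraries in 3 groups was measured, and groups were taken from the sample titles. The authors deposited TPM per gene and library, with 2 decimals, and each column summed to 1000000. The submitters' processing notes name GRCh38 and RSEM 1.2.31. No source used here names the aligner or the annotation. Since TPM is a share of the library, depth is unknown and no counting interval was given. Harvest is labelled as 8 days after infection but selection as 1 to 2 weeks, so its day is uncertain.

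From the values log2(TPM + 1) was computed for the 11151 genes with at least 1 TPM in 2 or more libraries. A model with 3 group means was fitted with limma 3.58.1 in R 4.3.3 (trend on mean expression, 3 residual degrees of freedom), and p-values were two-sided and adjusted over all genes in each comparison. The fit was tested on simulated data. Sums and groups of genes were not tested. All 70 symbols were matched to GENCODE release 29 and to RefSeq, and sequences come from these sources. Named genes are DDX6, every kept clustered gene, with values for up to 6 per family by level and for the largest changes, and up to 4 per other list by lowest p, besides SLBP, NPAT, LSM1, UPF1 and ERI1. H2AFZ, H3F3A and CENPA were named after their values were seen. The members, lists and alternatives were chosen with earlier results of these data known.

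Alternatives were other pseudocounts and filters, quantile normalization, median centring, limma with robust estimation or with no trend, a block for the replicate number, each library left out, only the groups compared, and the sgDDX6 libraries as a single group. A split by RefSeq span and sums without HIST1H2BK or over kept genes alone, and counts without genes that reached 1 TPM in sgDDX6 libraries only, were added after the data were seen.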

Additional observations from a re-analysis of the deposited data

Results flagged for a closer look

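Both guides were set against the same sgNS libraries, and 25 distinct clustered histone genes differed between the guides in limma's direct test of sgDDX6.2 minus sgDDX6.1 (adjusted p under 0.05), on the log2(TPM + 1) scale. Of all genes, 35.6% passed this test. Without the filter on low values, 6 of the 28 calls among all 51 rows held. Calls that did not hold with 1 library left out are named above. The 8 H2B genes that passed, of 12, were higher in sgDDX6.2, with HIST3H2BB at 1.13, HIST1H2BK and HIST2H2BE at 1.03 each, HIST1H2BC at 0.74, HIST1H2BO at 0.61, HIST1H2BD at 0.44, HIST2H2BF at 0.43 and HIST1H2BJ at 0.42. The 6 H4 genes that passed, of 11, were also higher, with HIST1H4J at 1.23, HIST1H4H at 0.95, HIST4H4 at 0.84, HIST1H4C at 0.66, HIST2H4A at 0.63 and HIST1H4E at 0.37. Among H2A genes, HIST2H2AA3 at 0.70, HIST1H2AC at 0.56 and HIST1H2AG at 0.29 were higher and HIST2H2AC at -0.55 was lower. Among H3 genes, HIST1H3A and HIST1H3D at 0.97 each and HIST1H3J at 0.45 were higher and HIST2H3A at -0.44 was lower. In H1, HIST1H1C at 0.60 was higher, and HIST1H1E at -0.41 and HIST1H1B at -0.36 were lower. HIST1H4J has the coding sequence of HIST1H4K, whose difference was -0.50 and did not pass. With 1 sgDDX6 library left out, the HIST1H4J difference was 0.583 to 1.875.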

How the results depend on the processing

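Over both guides 29 of the 51 kept genes passed. Without the filter on low values 16 of 70 passed (33.9% of all genes), and with the 4 sgDDX6 libraries as a single group 11 of 51 (46.7% of all genes). For sgDDX6.1 against sgNS 20 passed, 11 of 70 without the filter (29.6% of all genes) and 13 of 27 with a filter at 5 TPM (65.0%). For sgDDX6.2 against sgNS 25 passed and 16 of 70 without the filter (32.1%), and for sgDDX6.2 minus sgDDX6.1 28 passed and 7 of 70 without the filter (9.36%). The filters change how many genes are tested, and the cause was not tested further. With 1 library left out at a time, the counts were 24 to 30 over both guides, 19 to 24 for sgDDX6.1, 27 to 31 for sgDDX6.2 and 22 to 31 between the guides, and the lone library of a group was taken to vary like the others. The ratio of summed TPM was then 1.051 to 1.094 for sgDDX6.1 over sgNS, 1.756 to 1.825 for sgDDX6.2 over sgNS and 1.636 to 1.703 for sgDDX6.2 over sgDDX6.1. Without HIST1H2BK it was 1.19 for sgDDX6.1 over sgNS, 1.70 for sgDDX6.2 over sgNS and 1.43 for sgDDX6.2 over sgDDX6.1. The share of genes with a long annotated form called higher between the guides was 65% by GENCODE, against 28.6% of the rest. By RefSeq span, a split chosen after the data were seen, it was 100%, against 35.7% of the rest. Among all genes the share was 17%. In both splits the genes with a long form were also the more abundant ones. Among differences that passed in either fit, 1 changed sign, that of HIST1H4H for sgDDX6.1 (-0.417 without sgNS replicate 1 and 0.429 without sgNS replicate 2). Signs of differences that did not pass also turned.

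The replicate numbers were not taken to pair the libraries, since the labels tie them to no batch and not every pair's deviations from the group means correlated above 0.1. The correlations were 0.262 for sgDDX6.1 and sgNS, 0.0977 for sgDDX6.2 and sgNS and 0.0399 for sgDDX6.2 and sgDDX6.1. With the replicate number as a block 33 of the 51 genes passed over both guides (70.5% of all genes) and 24 for sgDDX6.1 (66.4%). For sgDDX6.2 30 passed (68.6% of all genes), and between the guides 29 (43.1%). Low levels and shared reads limit what single H3 and H4 genes can show.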
